A study of Mus musculus with 8 samples.

Results

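Eph receptors are the largest family of receptor tyrosine kinases, and ephrins are their ligands, held on the surface of neighbouring cells. A set of 10 genes of this family was followed in the mouse left ventricle: 4 EphA receptors (Epha2, Epha3, Epha4 and Epha7), 2 EphB receptors (Ephb3 and Ephb4), 2 A-type ephrins (Efna1 and Efna5) and 2 B-type ephrins (Efnb1 and Efnb2). They were matched by gene name among 55679 genes, and each name occurred in 1 row. The table held 22 Eph receptor and ephrin genes in all, 14 receptors and 8 ephrins, so 12 lay outside the set. The set was chosen by the contrast of angiotensin II (ANG II) with control, in which the FPKM of Epha4 was lower. All its genes belong to the family, but why these 10 of the 22 were taken is not stated in the sources used here. With 1 FPKM added, Ephb6, Ephb2 and Efnb3 outside it had log2 differences larger in size than the 9 genes other than Epha4. This order depended on the scale: with 0.1 FPKM added Epha3 stood at 1.5, while Efnb3 went no lower than -0.74 in any alternative. The levels of the 10 genes in the 2 groups are therefore given as a description. No p-value is printed for them, the counts of them that passed a threshold stand beside the share of all genes that did, and neither is a test of the set. The question was whether the rest of the family shared the lower level of Epha4.

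The RNA came from the left ventricles of male wild-type C57BL/6J mice, whose age was not stated in the sources used here. The 4 control mice received saline and the 4 ANG II mice received 1500 ng/kg/min of ANG II, a vasoconstrictor peptide. Both were given for 7 days from osmotic pumps placed under the skin, and saline was run through each heart before dissection. The study called its replicates biological, and the labels number them 1 to 4 in each group. Further libraries that the study describes were not analysed here.

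Eph receptors and ephrins work by contact between cells. The receptor passes a forward signal into its own cell, mostly by way of proteins that reshape the actin cytoskeleton, and the ephrin passes a reverse signal into the other cell. A-type ephrins are held by a lipid anchor and B-type ephrins span the membrane. EphA receptors bind mainly A-type and EphB receptors mainly B-type ephrins, but EphA4 binds both types. In vessels, ephrin-B2 marks arterial and EphB4 venous endothelium.

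The libraries held 14455654 to 16564828 fragments, counted from the steps of the deposited values. Across genes, log2 values correlated at 0.988 to 0.99 within groups and 0.97 to 0.977 between groups, and genes are not independent replicates. The labels' extraction text names another cell type, so the tissue was checked. The 8 cardiomyocyte markers summed to 43947 to 44895 FPKM in control and 32842 to 35985 FPKM in ANG II, while none of 8 colon epithelium markers exceeded 0.804 FPKM in any library and Cdx2, which specifies intestine, was at 0 in all. FPKM is the number of fragments scaled for transcript length and for the depth of the library, so levels of different genes are compared per length. The length that turned the deposited values back into whole fragments was the mean over a gene's annotated transcripts. It was 3423 bases for Epha4, 1480 for Epha2 and 1400 for Ephb6. The order of genes and their shares of a sum depend on these lengths.

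Epha4 (ENSMUSG00000026235, chromosome 1, 77367185 to 77515088, minus strand, GRCm38) encodes a receptor best known for guiding axons. It was at 22.7, 25.5, 23.5 and 17.9 FPKM in control replicates 1 to 4, and at 7.15, 6.89, 8.52 and 10.7 FPKM in ANG II replicates 1 to 4. Every ANG II library lay below every control library, and the gap between the groups, 7.22 FPKM, was wider than the range of the ANG II libraries (3.79 FPKM) and narrower than that of the controls (7.61 FPKM). The means were 22.4 ± 3.23 FPKM in control libraries and 8.31 ± 1.73 FPKM under ANG II (SD, n = 4 each), so the control mean was 2.70-fold higher. On the scale of log2(FPKM + 1), the difference between ANG II and control was -1.34 (SE 0.141). Of the 19364 genes tested, 4 had a lower log2 difference. The level rested on 937 to 1335 fragments per control library and 371 to 584 per ANG II library, and 0.0982% of its 50-base words occur in transcripts of other genes.

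Since this is bulk tissue, fewer cells of a type and less RNA per cell cannot be told apart for any gene here.

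The stretch around the start of Epha4 is shown beside that of Ephb6, because these were the family genes with the lowest and the highest difference in log2(FPKM + 1). With 0.1 FPKM added Ephb6 was also the highest (1.88), but with voom Ephb2 (2.13) and Epha3 (2.03) stood above it (1.97). Both windows run 5′ to 3′ from 250 bases before to 50 bases after the RefSeq start (GRCm38.p6), and capitals mark the GC box GGGCGG on either strand. The Epha4 window is chr1:77515039-77515338 on the minus strand and the Ephb6 window is chr6:41605261-41605560 on the plus strand.
Epha4: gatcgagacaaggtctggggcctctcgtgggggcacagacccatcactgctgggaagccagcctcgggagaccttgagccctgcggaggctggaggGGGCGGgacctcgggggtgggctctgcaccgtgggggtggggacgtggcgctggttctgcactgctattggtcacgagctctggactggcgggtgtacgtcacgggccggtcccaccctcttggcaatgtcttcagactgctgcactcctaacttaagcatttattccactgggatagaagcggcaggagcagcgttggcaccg
Ephb6: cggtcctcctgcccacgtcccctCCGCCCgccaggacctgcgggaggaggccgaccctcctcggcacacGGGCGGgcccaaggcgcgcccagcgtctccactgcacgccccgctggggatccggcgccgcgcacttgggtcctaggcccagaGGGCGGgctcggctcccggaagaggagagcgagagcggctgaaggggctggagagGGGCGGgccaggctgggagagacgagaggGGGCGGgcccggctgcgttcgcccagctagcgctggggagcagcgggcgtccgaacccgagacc
The Epha4 window held 1 GC box and 64.0% G and C, and the Ephb6 window 5 GC boxes and 76.3%, against a median of 52.7% G and C over all 32851 windows. A GC box occurred in 35.7% of all windows. Of the 21 family genes that had a window, 16 held a GC box in any of theirs. These genes had 24 windows, so the count per gene and the rate per window are not compared. The TATA box TATAAA (13.6% of all windows), the AP-1 site TGANTCA (7.81%) and the NFAT core GGAAAA (23.4%) were searched on both strands and were in neither of the windows shown. A match is a description of these letters.

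The other 9 genes of the set did not share the lower level of Epha4. Calls required an adjusted p-value under 0.05 by limma together with an absolute log2 fold change above 0.5. By this rule 1 of the 10 genes was called lower (Epha4), where 1.41% of all genes tested were called lower, and 0 were called higher, where 14.0% were. The 10 genes were chosen with this contrast in view, and nothing is read from these shares. All 9 had a positive log2 fold change, from 0.16 to 0.47 with a median of 0.33, while the median of all genes tested was 0.15. Relative to that median they stood at 0.02 to 0.32 and Epha4 at -1.48. The direction of 4 of them depended on the scaling of the libraries: under quantile normalization Epha2, Epha7, Ephb3 and Efna1 stood at -0.0029, -0.10, -0.15 and -0.07, and under median-of-ratios scaling Ephb3 and Efna1 at -0.03 and -0.04. At an unadjusted p-value under 0.05, limma gave 5 of the 10 as higher, where 35.9% of all genes tested were, and 1 as lower, where 7.09% were. On the recovered fragments voom called 2 higher (Epha3 and Efna5), beside 18.9% of all genes, and 1 lower (Epha4), beside 2.01%. With the adjusted p-value alone and no fold threshold, 1 gene was lower (4.91% of all genes tested) and 3 were higher (28.4%), namely Epha3, Ephb4 and Efnb2. The groups did not overlap at these same 4 genes, 1 lower (5.06% of all genes tested) and 3 higher (28.7% of all genes tested).

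**Figure D1:**
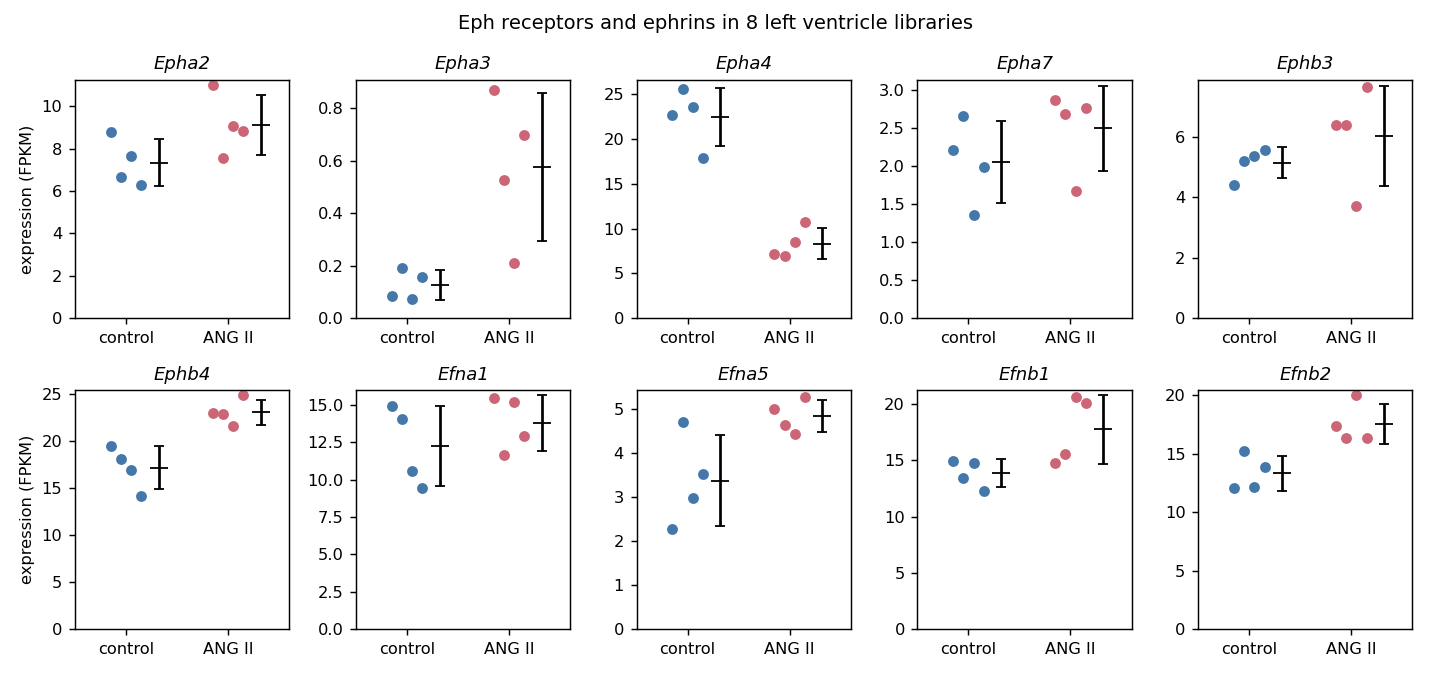
Expression in FPKM of the 10 Eph receptors and ephrins in each library, with control libraries in blue and ANG II libraries in red, and the mean with its SD as a black bar (n = 4 per group). The Epha4 panel shows ANG II libraries at 6.89 to 10.7 FPKM and control libraries at 17.9 to 25.5 FPKM, while the means of the other 9 are higher in ANG II, with overlapping libraries at 6 of them.

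Among the EphA receptors, Epha2 and Epha7 overlapped between the groups. Epha2, a receptor of epithelium and endothelium, was at 8.79, 6.66, 7.63 and 6.27 FPKM in control and at 11.01, 7.54, 9.07 and 8.84 FPKM in ANG II. Its lowest ANG II library lay within the control range, and the log2 difference was 0.28 (SE 0.125). Epha7, a receptor known from the developing brain, was at 2.21, 2.65, 1.36 and 1.98 FPKM in control and at 2.86, 2.68, 1.67 and 2.76 FPKM in ANG II. Its ANG II replicate 3 lay among the controls, and the log2 difference was 0.20 (SE 0.167).

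Epha3, a receptor needed for the cushions that form the heart valves, was close to the limit of detection. It was at 0.0827, 0.191, 0.0722 and 0.156 FPKM in control, from 3, 7, 3 and 6 fragments, and at 0.868, 0.525, 0.211 and 0.699 FPKM in ANG II, from 33, 21, 8 and 28 fragments. All 4 ANG II libraries lay above all controls, but ANG II replicate 3 only just, and the controls of replicates 1 and 3 stood at the floor of 3 fragments that a value of 0 allows. The log2 difference was 0.47 (SE 0.134) with 1 FPKM added, 1.5 with 0.1 FPKM added and 2.03 (SE 0.554) with voom on the recovered fragments, so its size was set by the scale. It was called on the last 2 scales, and also without ANG II replicate 3, at 0.59.

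Of the EphB receptors, Ephb4 did not overlap between the groups and Ephb3 did. Ephb4, the receptor of venous endothelium, was at 19.5, 18.0, 16.8 and 14.2 FPKM in control and at 22.9, 22.8, 21.5 and 24.8 FPKM in ANG II. The means were 17.1 ± 2.25 and 23.0 ± 1.34 FPKM (SD, n = 4 each), and the log2 difference of 0.41 (SE 0.0921) was under the fold threshold. Quantile normalization gave 0.18 and median-of-ratios scaling 0.19. Ephb3, which with Ephb2 positions cells along the intestinal crypt, was at 4.42, 5.22, 5.37 and 5.58 FPKM in control and at 6.39, 6.38, 3.71 and 7.66 FPKM in ANG II. ANG II replicate 3 was the lowest of all 8 libraries, the other ANG II libraries were the highest, and the log2 difference was 0.16 (SE 0.172).

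The A-type ephrins overlapped between the groups. Efna1, which endothelial cells make under inflammatory cytokines, was at 14.9, 14.1, 10.5 and 9.43 FPKM in control and at 15.5, 11.6, 15.2 and 12.9 FPKM in ANG II, with control replicates 1 and 2 inside the ANG II range and a log2 difference of 0.17 (SE 0.147). Efna5, a ligand known from axon mapping, was at 2.28, 4.72, 2.97 and 3.52 FPKM in control and at 4.99, 4.64, 4.44 and 5.27 FPKM in ANG II. Control replicate 2 alone reached the ANG II range. The log2 difference of Efna5 was 0.44 (SE 0.157), and 0.58 without control replicate 2, when it was called. Median-of-ratios scaling gave 0.26 for it and quantile normalization 0.13.

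The B-type ephrins stood at similar levels to each other. Efnb1, whose loss disturbs the skull and face, was at 14.9, 13.4, 14.8 and 12.3 FPKM in control and at 14.7, 15.6, 20.7 and 20.1 FPKM in ANG II. ANG II replicates 3 and 4 were well above the controls, ANG II replicates 1 and 2 were close to them, and the log2 difference was 0.33 (SE 0.116), or 0.11 by median-of-ratios scaling and 0.09 by quantile normalization. Efnb2, the ephrin of arterial endothelium, was at 12.03, 15.2, 12.2 and 13.8 FPKM in control and at 17.4, 16.3, 20.01 and 16.4 FPKM in ANG II. All ANG II libraries lay above all controls, and the log2 difference was 0.37 (SE 0.0933), under the fold threshold. With median-of-ratios scaling it was 0.16, and with quantile normalization 0.14.

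The order of the levels differed between the groups. In control Epha4 had the highest mean of the 10 genes, although its libraries overlapped those of Ephb4, the next in order. Below them came Efnb1, Efnb2 and Efna1 with means of 13.8, 13.3 and 12.2 FPKM, each overlapping the next, then Epha2 and Ephb3, each apart from the gene before it, and then Efna5, Epha7 and Epha3. In ANG II the highest mean was that of Ephb4, which stood apart from Efnb1, and Epha4 was sixth of the 10, between Epha2 (9.12 FPKM) and Ephb3 (6.04 FPKM) and overlapping both. Among all 22 family genes it ranked 1 in control and 7 in ANG II, where Efnb3 also stood above it. In fragments Epha4 (371 to 584 per ANG II library) stood above Epha2 (178 to 247), so this order depends on the transcript lengths used.

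A share within a library does not change when the whole library is scaled by 1 factor. Of the summed FPKM of the 4 EphA receptors, Epha4 held 67.2, 72.9, 72.2 and 68.0% in control and 32.7, 39.1, 43.8 and 46.5% in ANG II, or 70.1 ± 2.88% against 40.5 ± 6.05% (SD, n = 4 each). Of all 14 Eph receptors it held 38.2 ± 2.38% in control libraries and 14.5 ± 2.47% under ANG II. Ephb4 held 29.2 ± 1.52% in control libraries and 40.3 ± 1.40% under ANG II, and no ANG II library overlapped the controls for either receptor. The total of that share includes Epha4, whose lower level chose the set. Of the receptors without Epha4, Ephb4 held 47.4 ± 2.50% in control libraries and 47.2 ± 2.07% under ANG II, with overlap. The sum of all 14 receptors was 58.5 ± 6.12 FPKM in control libraries and 57.2 ± 4.69 FPKM under ANG II. The mean of Ephb4 itself was 17.1 FPKM in control libraries and 23.0 FPKM under ANG II. The part of each in its larger share was not tested.

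**Figure D2:**
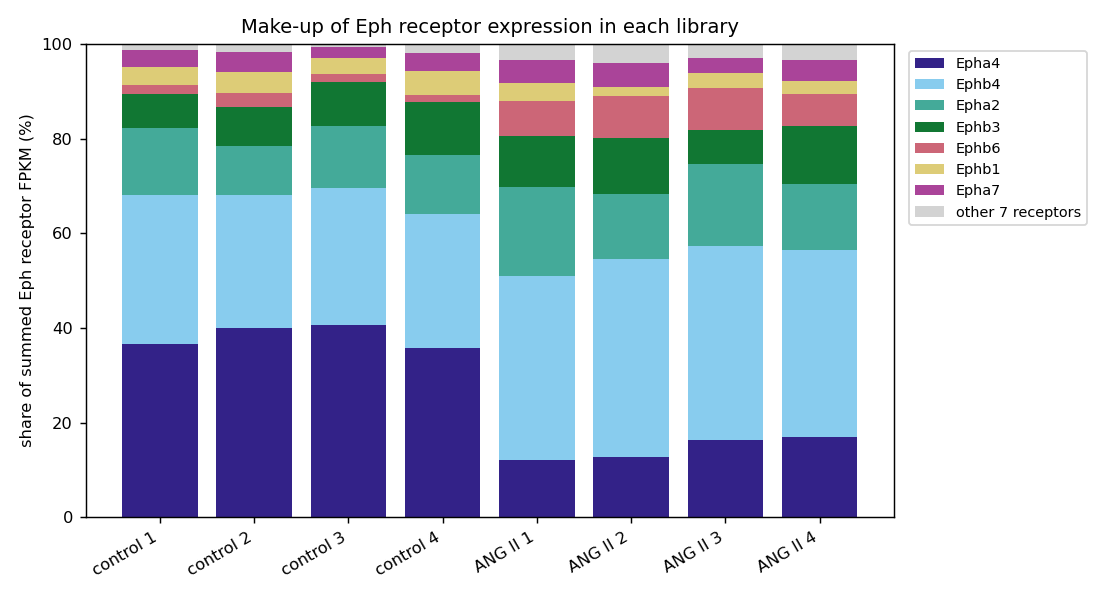
Make-up of Eph receptor expression in each library, as each receptor's share in percent of the FPKM summed over all 14 receptors. The shares depend on the transcript length used for each gene. Each bar is 1 library, and the Epha4 segment takes 35.7 to 40.6% in control and 12.1 to 17.0% in ANG II.

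Outside the set of 10, Ephb6 and Ephb2 rose, and Efnb3 had a lower mean that fell short of the fold threshold. Of the 12 family genes there, 7 passed the filter of a mean of at least 0.1 FPKM. By limma with Benjamini-Hochberg adjustment over all genes tested, 2 of the 7 were called higher (14.0% of all genes tested), 0 were called lower (1.41%), and 5 were not called, with a median log2 fold change of 0.08. At an unadjusted p-value under 0.05, 2 were higher (35.9% of all genes tested) and 2 lower (7.09%). With voom, 2 were called higher (Ephb2 and Ephb6, beside 18.9% of all genes) and 2 lower (Ephb1 and Efnb3, beside 2.01%). With 7 genes these counts are given as a description.

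Ephb6, a receptor whose kinase domain is inactive, was at 1.19, 1.91, 0.992 and 0.794 FPKM in control and at 4.33, 4.84, 4.72 and 4.34 FPKM in ANG II. The ANG II libraries were tightly grouped and all above the controls. On the log2 scale Ephb6 rose by 1.35 (SE 0.147, limma adjusted p = 1.39e-04), and by 1.20 relative to the median of all genes. Ephb2, which like Ephb3 takes part in sorting cells at tissue boundaries, was at 0.232, 0.212, 0.124 and 0.252 FPKM in control, from 8 to 15 fragments, and at 0.747, 1.26, 0.698 and 0.935 FPKM in ANG II, from 41 to 78 fragments. The groups did not overlap, and Ephb2 rose by 0.66 (SE 0.112, limma adjusted p = 0.00163). The size was set by the scale, at 1.72 with 0.1 FPKM added and 2.13 with voom, and Ephb2 was not tested with a filter of 1 FPKM.

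Efnb3 is the ligand that meets EphA4 at the midline of the spinal cord. It was at 18.3, 15.7, 16.6 and 14.7 FPKM in control and at 11.1, 10.8, 13.1 and 10.2 FPKM in ANG II, so all ANG II libraries lay below all controls. Its log2 difference was -0.49 (SE 0.0917, limma adjusted p = 0.00267), which is short of the fold threshold, and -0.64 relative to the median of all genes. It was called lower in 8 of 16 alternatives, among them median-of-ratios scaling (-0.71) and quantile normalization (-0.74), and without control replicate 2 (-0.51), control replicate 4 (-0.54) or ANG II replicate 3 (-0.56). Efnb3 held 27.3 ± 1.99% of the FPKM summed over the 8 ephrins in control libraries and 17.1 ± 1.14% under ANG II (SD, n = 4 each).

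Ephb1, a receptor for B-type ephrins, was at 2.32, 2.80, 1.98 and 2.48 FPKM in control and at 2.19, 1.13, 1.66 and 1.68 FPKM in ANG II. ANG II replicate 1 lay within the control range, and the log2 difference of -0.36 (SE 0.14) was not called (limma adjusted p = 0.0761). It was called lower under median-of-ratios scaling (-0.51) and quantile normalization (-0.65). Epha1, Efna2 and Efna4 were not called, at log2 differences of 0.08, 0.08 and 0.16. Epha5, Epha6, Epha8, Epha10 and Efna3 were not tested, and held 0 to 5 fragments in each library.

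**Figure D3:**
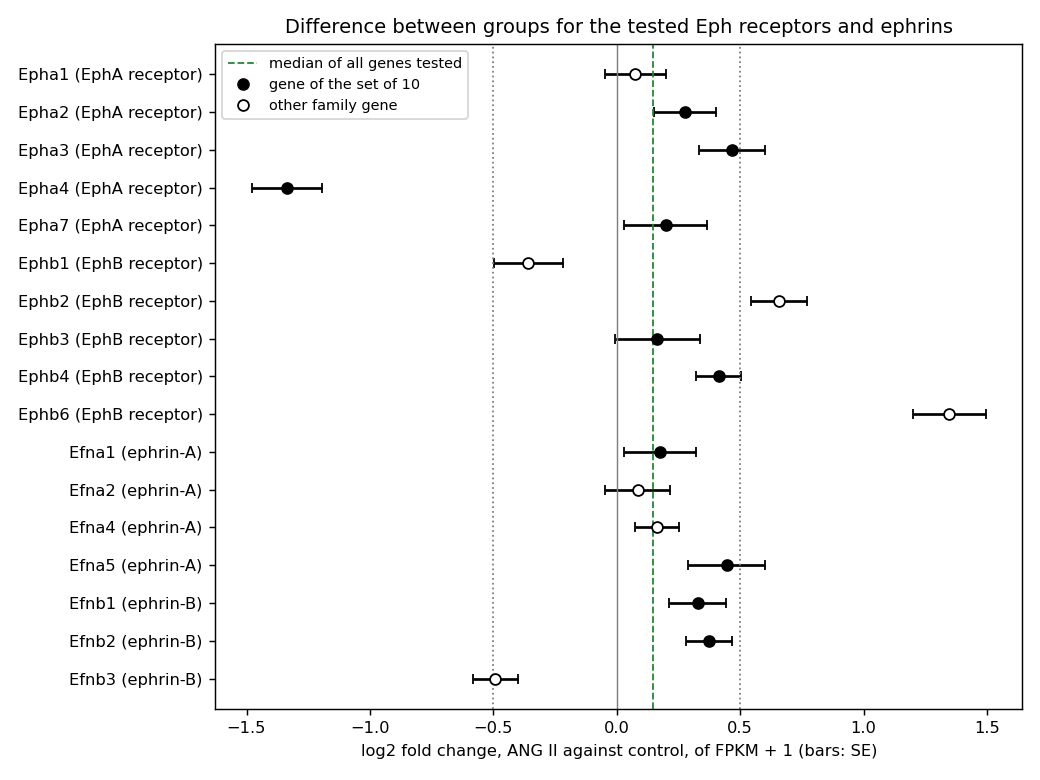
Difference between ANG II and control in log2(FPKM + 1) with its SE for the 17 tested genes of the family, filled for the set of 10 and open for the others. Dotted lines mark the fold threshold of 0.5 in each direction and the dashed line the median of all genes, 0.15; Epha4 lies at -1.34 and Ephb6 at 1.35, the ends of the range.

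Genes across the table were ranked by how closely they followed Epha4, as the root mean square difference of log2(FPKM + 1) over the 8 libraries after centring each gene. Among 12511 genes with a control mean of at least 1 FPKM, the nearest were Pla2g5 (0.192), Lrrc15 (0.202), Mylk4 (0.209), Lrrc4b (0.223) and Phkg1 (0.230). Pla2g5, a secreted phospholipase, was at 26.7 ± 2.90 FPKM in control libraries and 10.6 ± 2.16 FPKM under ANG II. Mylk4, a myosin light chain kinase of muscle, was at 64.2 ± 5.82 and 27.6 ± 4.03 FPKM (SD, n = 4 each). The likeness rests largely on the difference between the groups, and no family gene was among these 5.

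Genes that act with Eph receptors and ephrins were read in lists of 22 and 12 genes, beside a median log2 fold change of 0.15 for all genes tested. The median was 0.30 in the first list and 0.28 in the second.

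Among 22 adaptors, kinases and phosphatases, 21 were tested, 4 rose and 17 did not pass, which is near the 14.0% of all genes tested that were called higher and so no result about the list. Src and Lyn, kinases that act beside Eph receptors, rose by 0.84 (SE 0.114) and 0.77 (SE 0.0754). The adaptor Shc1 rose by 0.83 (SE 0.0859) and Ptpn1, a phosphatase that removes phosphate from receptors, by 0.73 (SE 0.0764). The limma adjusted p-values ran from 7.91e-05 to 4.55e-04. Anks1, an adaptor bound to EphA receptors and named after its value was seen, was at -0.37, and was called lower under both quantile normalization and median-of-ratios scaling.

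Of 12 reverse signalling partners and shedding proteases, 4 rose and 8 did not pass, beside 14.0% of all genes tested that were called higher and 1.41% lower. The membrane protease Mmp14 was at 15.3 ± 1.41 FPKM in control libraries and 70.6 ± 5.88 FPKM under ANG II, and rose by 2.14 (SE 0.0798). The protease Adam10, which cuts ephrins, rose by 0.69, Sdcbp (syntenin), which binds the tail of B-type ephrins, by 0.65, and Rgs3, a regulator of G-protein signalling on the same tail, by 0.63. The limma adjusted p-values ran from 1.21e-06 to 3.95e-04. Sdcbp and Rgs3 were no longer called under median-of-ratios scaling and quantile normalization, and Adam10 under median-of-ratios scaling. Ret, a receptor tyrosine kinase that works with A-type ephrins and is named after its value was seen, was at -0.39 (limma adjusted p = 0.0694), and was called lower under median-of-ratios scaling, quantile normalization and voom.

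**Figure D4:**
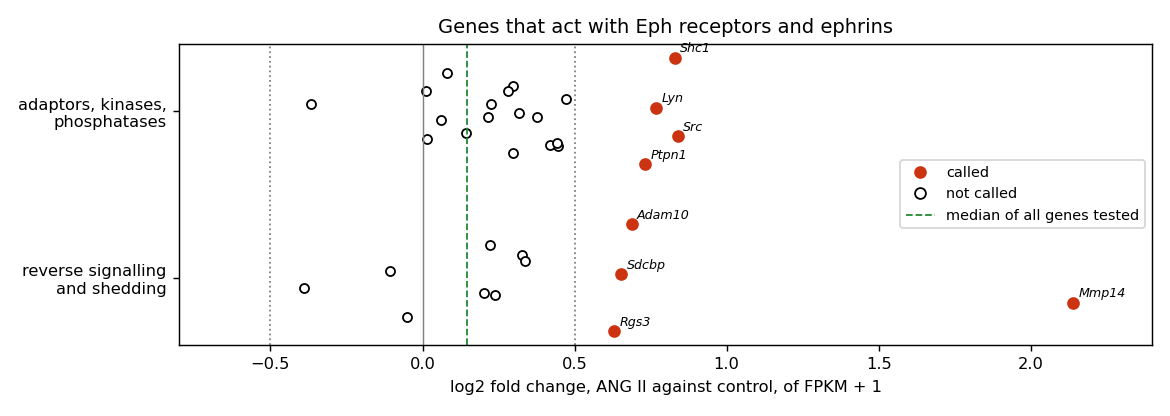
Difference between ANG II and control in log2(FPKM + 1) for the tested genes of both lists, 21 adaptors, kinases and phosphatases and 12 reverse signalling partners and shedding proteases, 1 point per gene, with called genes filled and named. The dotted lines mark the fold threshold of 0.5 in each direction and the dashed line the median of all genes, and the called genes lie to the right, up to 2.14 for Mmp14.

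Markers of cell types moved with the groups beside these results, where 14.0% of all genes tested were called higher and 1.41% lower. All 8 fibroblast markers were called higher (summed 535 to 794 FPKM in control and 2840 to 3318 in ANG II), as were all 8 macrophage markers (149 to 182 against 364 to 483). Of the cardiomyocyte markers 2 of 8 were called lower. Among endothelial markers 1 of 10 pan-endothelial, 5 of 8 arterial and 3 of 6 venous genes were called higher, the arterial sum being 50.4 to 56.97 FPKM in control and 88.1 to 101.7 in ANG II, the venous sum 64.7 to 83.6 and 89.8 to 113, and the pan-endothelial sum 535 to 597 and 610 to 693. Of 9 mural markers 3 were called higher and 1 lower, with sums of 557 to 635 and 595 to 666 FPKM. Of 8 glial markers 0 were called by limma, with sums of 5.50 to 10.2 and 8.45 to 11.04 FPKM, and of 4 mesothelial markers also 0. Of 4 atrial genes 2 were called higher (Nppa and Sln), with sums of 7.72 to 58.5 and 195 to 339 FPKM. Nppa alone was at 109 to 161 FPKM in ANG II, and the study lists its product, ANP, among genes that cardiomyocytes activate in hypertrophy. Myl7 and Myl4 were not called, and Myl7 ran from 0.205 to 21.1 FPKM in control and from 21.7 to 89.6 FPKM in ANG II. Myl7, Myl4 and Sln were lowest in control replicate 3 and highest in ANG II replicate 3. Mitochondrially encoded genes took 26.3 to 27.0% of fragments in control and 19.2 to 21.8% in ANG II. The part of these shifts in the levels of the Eph receptors and ephrins was not tested.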

How the data were processed

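Left ventricles of 8 mice were sequenced as paired reads of 150 bases after oligo(dT) enrichment. The authors deposited 1 table of FPKM values with a column per library and no pooling. Per the labels, HISAT, Bowtie2 and RSEM were used, while their roles, the genome build, the annotation and the strand setting are not given in the sources used here. Gene positions and lengths came from GENCODE M21 (GRCm38), which held 55141 of 55679 gene IDs, and promoter windows from RefSeq (GRCm38.p6), matched by symbol for 21 of 22 family genes.

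Fragments were recovered by multiplying FPKM by the mean transcript length: of values under 60 fragments, 99.3% (genes with 1 exon) and 97.8% (several exons) fell within 0.05 of a whole number. They cover counting error only. limma 3.58.1 in R 4.3.3 (lmFit, eBayes with trend) was run on log2(FPKM + 1) with 4 libraries per group, no covariate and no block, for the 19364 genes that averaged 0.1 FPKM or more. Adjustment followed Benjamini-Hochberg across these genes. The study names the thresholds (0.05 and 0.5). The pseudocount and filter, the base of the logarithm and the form of the model were choices made here, and fold changes on this scale understate the change of low genes. The script was tested on simulated data. The text names the 10 genes, the rest of the family, up to 4 called genes per list, and the 5 genes nearest to Epha4. The genes and lists were chosen with earlier results of these data known. The alternatives were other pseudocounts, filters, scalings and thresholds, the replicate number as a block, each library left out, and voom. Python 3.11.15, numpy 2.4.6, pandas 2.3.3 and matplotlib 3.10.9 were used. Of the 4 pathway lists, 2 are not reported here one by one.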

Additional observations from a re-analysis of the deposited data

Results flagged for a closer look

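In 42 groups of 4 libraries, 8 held a library far from the other 3. In the set of 10 this was Epha7 in ANG II replicate 3, at 1.67 FPKM beside 2.68 to 2.86 FPKM in the others. The same library was also the lowest for Ephb3. Chance gives such a library in about 1 in 20 groups.

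The other 7 were genes at 0 in 3 libraries of the group and at 1 to 5 fragments in the fourth, where any fragment stands apart by construction and the chance rate does not apply: Epha5 in control replicate 2 (0.0813 FPKM), Epha6 in control replicate 1 (0.0703 FPKM) and ANG II replicate 2 (0.0318 FPKM), Epha8 in control replicate 4 (0.0139 FPKM) and ANG II replicate 3 (0.014 FPKM), Epha10 in ANG II replicate 4 (0.0237 FPKM), and Efna3 in control replicate 2 (0.115 FPKM).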

How the results depend on the processing

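The log2 difference of Epha4, which chose the set, ran over the alternatives from -1.59 (quantile normalization) to -1.26 (without ANG II replicate 2). This describes the scale and is no support for its direction. The count of the set called higher was 1 with a pseudocount of 0.1 FPKM (Epha3), 2 with voom, 3 with no fold threshold, and 0 to 1 with 1 library left out. For family genes outside the set, the count called higher was 1 with a filter of 1 FPKM or a fold threshold of 1 on the log2 scale. The count called lower was 1 with a pseudocount of 0.1, without mitochondrially encoded genes or with no fold threshold, 2 with median-of-ratios scaling, quantile normalization or voom, and 0 to 1 with 1 library left out. Over all pathway lists, of 55 genes tested 15 were called higher and 1 lower (Arhgef19, at -0.61, named after its value was seen), beside 14.0% and 1.41% of all genes. In these lists 9 were called higher and 3 lower with median-of-ratios scaling and with quantile normalization, 2 lower with voom, 2 higher and 0 lower with a fold threshold of 1, and 34 higher and 2 lower with none, while 15 to 20 were higher and 1 lower with 1 library left out. The stricter filter and the other fold thresholds change these counts by their own construction; for the others the cause was not tested. The share of Epha4 was 38.2% and 14.5% of all Eph receptors, and 81.5% and 55.8% of the recovered fragments of the 4 EphA receptors, in control and ANG II. Of the summed FPKM of the 4 EphA receptors it was 70.1% and 40.5%, and ran from 69.1 to 71.0% and from 38.5 to 43.1% with 1 library left out. Epha3, Epha8, Epha10 and other genes with few fragments are limited by depth.

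No pairing by replicate number was seen: deviations of same-numbered libraries correlated at -0.0163, 0.062, -0.032 and -0.00929. With 4 libraries per group such correlations cannot exclude a batch shared by number. With the replicate number as a block, 0 genes of the set were called higher and 1 lower, 2 and 0 outside it, and 15 and 1 in the pathway lists.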

Other observations

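Summed over all 14 receptors, Eph receptor expression was 58.5 ± 6.12 FPKM in control libraries and 57.2 ± 4.69 FPKM under ANG II (SD, n = 4 each), a difference within the spread of the libraries. Without Epha4 the sum was 36.1 ± 3.32 FPKM in control libraries and 48.9 ± 3.93 FPKM under ANG II, with no overlap. Epha4 was left out for its lower level, and 28.7% of all genes tested were higher without overlap, so nothing is read from this sum. Ephb4, which held 47.4% and 47.2% of it, had a log2 difference of 0.41, or 0.18 by quantile normalization. The 8 ephrins summed to 59.8 ± 4.57 FPKM in control libraries and 66.2 ± 5.82 FPKM under ANG II, with overlap.

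The ratio of Ephb4 to Efnb2, the venous receptor and the arterial ligand, was 1.30 ± 0.257 in control libraries and 1.33 ± 0.185 under ANG II (SD, n = 4 each), while the ratio of Epha4 to Ephb4 was 1.31 ± 0.118 in control libraries and 0.36 ± 0.063 under ANG II.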
